A study of Mus musculus with 11 samples.

Results

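The replication-dependent histone genes of the mouse lie in clusters, and their older symbols begin with Hist1h to Hist4h. All 68 rows of the count files with such a symbol, of 24421 rows in all, were taken as members and grouped by the protein they encode: 6 genes for the linker histone H1, 18 for H2A, 19 for H2B, 12 for H3 and 13 for H4. RNA was sequenced from the hippocampus of mice whose mothers were given particulate matter (PM) through the nose at 200 µg per kg, on gestational days 9, 12 and 15, and from vehicle animals, labelled normal saline. Pups were born on day 21 and tissue was taken at 14 to 18 weeks of age. There were 6 PM and 5 vehicle libraries. The sample numbers in the labels' library names start again at 1 partway, while the titles run on, which splits the libraries into 2 deposit sets: the first holds PM replicates 1 to 3 and vehicle replicates 1 to 3, the second PM replicates 4 to 6 and vehicle replicates 4 and 5. How the mothers were treated is spelled out in the labels of the second set alone. The dose and timing above were assumed to hold for the first set too. No strain, sex or litter is given in the labels, and nothing in them says that libraries came from separate animals, so the spread behind every p-value is that between libraries and may be technical. The libraries did not all carry the same sex-linked RNAs. Ddx3y, a gene of the Y chromosome, had counts in PM replicates 1, 2, 4 and 5 and in vehicle replicates 1 to 3, at 0.00491% or more of gene counts in each. PM replicate 3 had 1e-05%, and PM replicate 6 and vehicle replicates 4 and 5 had no Ddx3y count, while Xist, the RNA of the inactive X chromosome, took 0.0187% and 0.0949% of gene counts in PM replicates 3 and 6 and 0.246% and 0.228% in vehicle replicates 4 and 5. Among vehicle libraries this difference and the set cannot be told apart. The labels describe the RNA in 2 ways, as total RNA with ribosomal RNA removed and as polyA RNA. Which of these applied to which libraries is not clear. A difference in RNA selection between the groups could therefore not be told apart from a difference by PM.

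In dividing cells these genes are switched on in S phase, when new DNA must be packed into nucleosomes. Each nucleosome holds H2A, H2B, H3 and H4, and H1 binds the DNA between nucleosomes. Their mRNAs are unusual among those of animals: they have no introns as a rule and end just after a short stem-loop instead of a poly(A) tail. The stem-loop binding protein, encoded by Slbp, and the U7 small nuclear ribonucleoprotein direct that cut. Some of these genes are also known to give polyadenylated transcripts in differentiated cells. Most neurons of the adult hippocampus no longer divide, and new ones arise from progenitors in the dentate gyrus.

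The stem-loop was looked for in the GENCODE M21 transcripts on GRCm38, the assembly also called mm10. The search covered the first 100 annotated bases after the stop codon, on the transcript's strand. A match had paired arms of 6 bases around a loop of 4 bases. The first arm had the form GGNNNT and the loop the form TNTN, where N is any base. The stem-loop was found in 45 of 52 members with at least 16 annotated bases after the stop codon (86.5%). Among other protein-coding genes it was found in 3 of 20912 (0.0143%), of which H2afx was 1. In members the matches began 22 to 59 bases past the stop codon, so a short annotation could miss one. The sequences below are shown because genes with the same loop letters behaved differently in PM libraries. Capitals mark the paired arms of the stem, and the 4 small letters between them are the loop.
Hist1h4d (H4, chr13:23581945-23581970, + strand): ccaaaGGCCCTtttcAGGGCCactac
Hist2h4 (H4, chr3:96262934-96262959, - strand): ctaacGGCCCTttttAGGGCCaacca
Hist1h4i (H4, chr13:22040961-22040986, - strand): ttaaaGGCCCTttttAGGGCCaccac
Hist1h3e (H3, chr13:23561898-23561923, - strand): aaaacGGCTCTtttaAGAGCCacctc
Hist1h1e (H1, chr13:23621777-23621802, - strand): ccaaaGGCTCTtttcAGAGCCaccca
Hist1h1c (H1, chr13:23739507-23739532, + strand): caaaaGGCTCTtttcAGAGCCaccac
Hist1h2be (H2B, chr13:23585526-23585551, - strand): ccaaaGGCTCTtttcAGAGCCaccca
Hist3h2a (H2A, chr11:58955167-58955192, + strand): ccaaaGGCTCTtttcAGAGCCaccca
Hist3h2ba (H2B, chr11:58949344-58949369, + strand): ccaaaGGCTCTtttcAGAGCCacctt
The form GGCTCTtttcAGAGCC was carried by 25 members of the H1, H2A, H2B and H3 classes, and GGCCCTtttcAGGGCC by 7 members, all of H4. All 26 printed bases were the same in 5 members, Hist1h1e, Hist1h2be, Hist1h2bg, Hist1h3b and Hist3h2a.

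Most of the clustered histone genes that could be tested had far lower counts in PM than in vehicle libraries, and a small group did not. Of 68 members, 10 had no count in any library, 27 had counts too low for testing and 31 were tested. With edgeR's quasi-likelihood test and Benjamini-Hochberg adjustment over all 14982 tested genes, 26 of the 31 were lower in PM, 2 were higher and 3 did not pass at an adjusted p of 0.05. Among all tested genes 36.4% were lower and 32.7% higher, 69.1% in either direction. The median log2 fold change of PM over vehicle was -4.38 over the 31 tested members and -0.045 over all tested genes. A log2 fold change below -4 that passed the test was found for 18 of the 31 members and for 0.981% of all tested genes. The filter on low counts bears on these figures. Its level of 0.8 CPM (counts scaled to library size) was reached in all 5 vehicle libraries by 30 of the 31 tested members, but in 5 or more PM libraries by only 8, and in no PM library by 19. A member that entered the test through its vehicle level alone had to differ, so these counts describe the members and support nothing further. In all, 36 of the 58 members with counts had every PM library below every vehicle library, against 22.3% of all genes with counts, and 1 member had every PM library above, against 17.9%. In bulk tissue, fewer cells of a type and less RNA per cell cannot be told apart.

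The libraries of the groups also differed beyond the histone genes. Counts in genes were 10938521 to 17763893 in PM libraries and 6012116 to 12496651 in vehicle libraries. With the reads in no gene included, the totals were 18988252 to 24865355 in PM and 18076259 to 36642509 in vehicle libraries. Reads with no feature made up 18.8% to 34.0% of all counts in PM and 60.9% to 62.0% in vehicle libraries. The nuclear RNA Malat1 took 0.0827% to 0.807% of gene counts in PM libraries and 2.12% to 2.33% in vehicle libraries. The part of these differences in the histone results was not tested. A count of 0 allows up to 3 counts in a library, which is 0.177 CPM in PM replicate 2, with the most gene counts, and 0.49 CPM in vehicle replicate 4, with the fewest; these floors cover counting error only. Markers of hippocampal neurons and glia, 3 for each cell type, had counts in both groups and moved both ways within a list. For excitatory neurons they summed to 7350 to 8770 CPM in PM and 7435 to 8592 CPM in vehicle libraries, with Slc17a7, a glutamate transporter, higher (log2 fold change 0.57) and Camk2a, a synaptic kinase, lower (-0.22). For inhibitory neurons the sum was 269 to 401 CPM in PM and 449 to 502 CPM in vehicle libraries, with Gad2, which makes GABA, lower (-1.21). For astrocytes it was 2201 to 4259 CPM in PM and 6035 to 6413 CPM in vehicle libraries, with the glutamate transporter Slc1a2 lower (-1.16) and the filament protein Gfap higher (1.08). For oligodendrocytes it was 3498 to 8099 CPM in PM and 3390 to 4308 CPM in vehicle libraries, with the myelin protein Mbp higher (0.93). For microglia it was 88.9 to 139 CPM in PM and 80.8 to 99.7 CPM in vehicle libraries. For dentate granule neurons it was 139 to 225 CPM in PM and 191 to 276 CPM in vehicle libraries, with the transcription factor Prox1 lower (-1.97) and C1ql2 higher (1.06), and for pyramidal neurons 337 to 484 CPM in PM and 454 to 562 CPM in vehicle libraries. The part of these markers in the histone results was not tested. Ttr, which marks the choroid plexus next to the hippocampus, ranged from 13.8 to 2400 CPM in PM and from 29.4 to 1070 CPM in vehicle libraries.

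Summed over each class, H3 and H4 counts nearly vanished from PM libraries, H1 was lower, and the H2A and H2B sums, carried by few genes, overlapped between the groups. H3 summed to 1.06 ± 0.196 CPM in PM and 28.8 ± 5.49 CPM in vehicle libraries (SD, n = 6 and 5), which is 27.3-fold lower. H4 summed to 5.76 ± 1.34 CPM in PM and 120.9 ± 7.17 CPM in vehicle libraries, 21.0-fold lower. H1 summed to 11.4 ± 3.15 CPM in PM and 83.6 ± 12.4 CPM in vehicle libraries, 7.35-fold lower. In these 3 classes every PM library was below every vehicle library. H2A summed to 23.4 ± 4.48 CPM in PM and 28.8 ± 1.36 CPM in vehicle libraries, with overlap. H2B summed to 69.9 ± 15.3 CPM in PM and 69.3 ± 3.84 CPM in vehicle libraries, a ratio of 1.01. The H2A and H2B ratios differed between sets: for H2B the first set gave a PM over vehicle ratio of 1.17 and the second 0.847, and for H2A the ratios were 0.974 and 0.652. Nucleosomes need the 4 core histones in equal amounts, while the class totals here are mRNA counts of genes of unequal length and were not compared with each other.

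**Figure D1:**
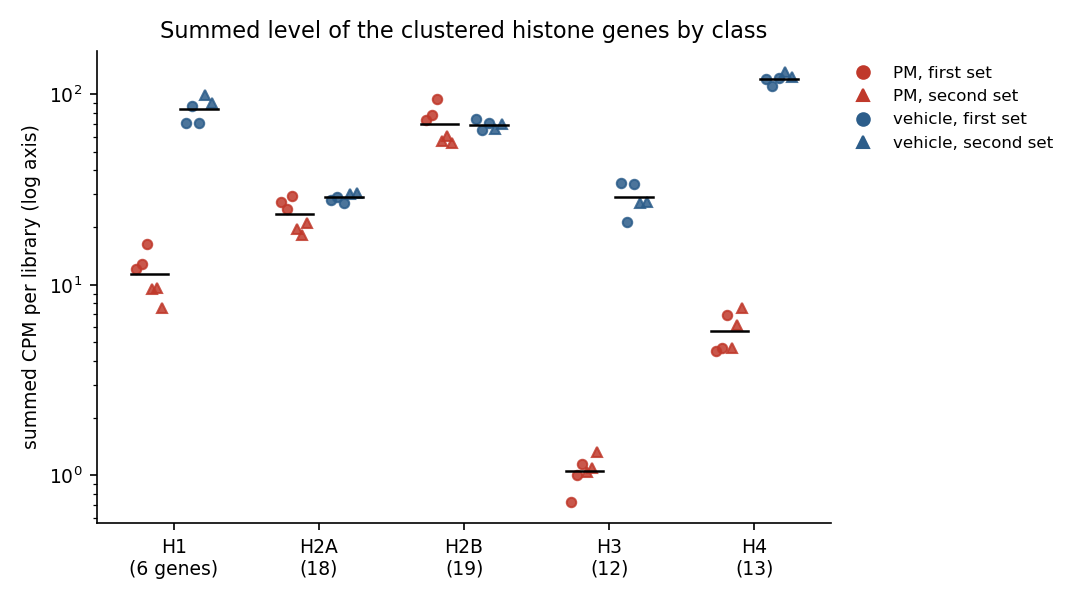
Summed CPM of each histone class (log axis) in the 6 PM and 5 vehicle libraries; circles are the first set, triangles the second, and bars the group means. For H1, H3 and H4 all PM points lie below all vehicle points, while H2A and H2B overlap, with means of 69.9 CPM in PM and 69.3 CPM in vehicle libraries for H2B.

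Of the H1 genes, which encode the linker histones that compact chromatin, all 5 tested members were lower in PM. Hist1h1e, which encodes H1.4, had 0.607 to 1.06 CPM in the PM libraries, with a median of 0.836, against 41.1, 48.3, 39.3, 60.6 and 50.8 CPM in the vehicle libraries. The groups were far apart, and the log2 fold change was -5.85 (SE 0.15, edgeR adjusted p = 1.124e-10). Hist1h1d, which encodes H1.3, reached at most 0.371 CPM in PM libraries, with a median of 0.161, against 11.8, 11.5, 8.31, 15.2 and 14.5 CPM in vehicle libraries (a log2 fold change of -5.90, with SE 0.32, edgeR adjusted p = 5.565e-09). Hist1h1a, which encodes H1.1, had 3 counts in the PM libraries together and 231 in the vehicle libraries. Scaled for library size, its vehicle over PM count ratio was 132, with a 95% exact counting interval of 44.7 to 646. Such intervals, here and below, pool the counts of each group. They cover counting error only and leave out the spread between libraries. Hist1h1b, which encodes H1.5, had 4 counts in PM and 97 in vehicle libraries. Hist1h1c, which encodes H1.2, was the exception in size. It had 6.46 to 15.1 CPM in PM libraries, with a median of 9.88, against 12.3, 19.3, 17.8, 17 and 16.9 CPM in vehicle libraries. The groups overlapped, and the log2 fold change was -0.69 (SE 0.17, edgeR adjusted p = 0.002428). Fitted on the first set alone it did not pass (a log2 fold change of -0.29, edgeR adjusted p = 0.1812), and after removal of a trend with gene length and GC content it was -1.255. Hist1h1c gave 90.0% of all H1 counts in PM and 20.3% in vehicle libraries, and Hist1h1e gave 7.14% in PM and 57.1% in vehicle libraries. Hist1h1t, the linker histone of the testis, had 4 counts in PM and 2 in vehicle libraries.

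Of the H2A genes, 3 of 18 were tested, 2 were lower and 1 did not pass. Hist3h2a gave 95.3% of all H2A counts in PM libraries and 64.7% in vehicle libraries. It had 17.3 to 28 CPM in PM libraries, with a median of 21.9, against 17.5, 20, 16.3, 18.8 and 20.9 CPM in vehicle libraries. The groups overlapped, and the log2 fold change of 0.27 did not pass (SE 0.12, edgeR adjusted p = 0.07018). It passed without vehicle replicate 5 (0.37, edgeR adjusted p = 0.01701) and without PM replicate 5 (0.32, edgeR adjusted p = 0.03718). The call was also made with no filter (0.36), with library sizes that leave out 6 abundant RNAs (0.34), with the length and GC trend removed (0.28) and in the first set by itself (0.63), while the second set by itself gave -0.083. In the annotation Hist3h2a overlaps Trim17 on the same strand and Gm44313 on the other. For Hist1h2ak, the PM libraries gave 1 count in all, against 166 in vehicle libraries. Its vehicle over PM count ratio was 285, with a 95% exact counting interval of 50.5 to 11300. Hist2h2ac had 0, 0, 0.215, 0.0741, 0.218 and 0.442 CPM in PM libraries, against 3.48, 1.63, 2.08, 2.78 and 1.76 CPM in vehicle libraries. Its PM libraries all lay below its vehicle libraries (a log2 fold change of -4, with SE 0.54, edgeR adjusted p = 1.851e-05). Hist1h2ac, Hist1h2ad and Hist1h2ae, all untested, had 27, 11 and 19 counts in PM against 23, 16 and 29 counts in vehicle libraries, with overlap in CPM.

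The H2B genes split. Of 7 tested, 4 were lower, 2 were higher and 1 did not pass. Hist3h2ba was the only member whose PM libraries all lay above the vehicle libraries. It had 16.1 to 22.6 CPM in PM libraries, with a median of 18.2, against 7.91, 6.87, 9.93, 7.18 and 5.93 CPM in vehicle libraries (a log2 fold change of 1.34, with SE 0.12, edgeR adjusted p = 3.722e-07). It lies beside Hist3h2a in the small cluster on chromosome 11. Hist1h2bc, annotated with 2 exons, had 26.0 to 53.7 CPM in PM libraries, with a median of 32.6, against 26.1, 24.5, 23.0, 23.2 and 27.8 CPM in vehicle libraries. The groups overlapped, and the log2 fold change was 0.49 (SE 0.15, edgeR adjusted p = 0.009795). The second set by itself gave 0.11, which did not pass (edgeR adjusted p = 0.4545). Hist2h2be had 6.63 to 13.9 CPM in PM libraries, with a median of 10.4, against 8.86, 9.13, 8.40, 9.80 and 8.78 CPM in vehicle libraries, and did not pass (a log2 fold change of 0.20, with SE 0.15, edgeR adjusted p = 0.2591). Its PM values spread wider than its vehicle values and lay on both sides of them. Hist1h2be had 3.63 to 5.79 CPM in PM libraries, with a median of 4.38, against 7.67, 5.79, 6.95, 8 and 7.14 CPM in vehicle libraries (a log2 fold change of -0.62, with SE 0.16, edgeR adjusted p = 0.003127). The fall passed in the second set (-1.03) and not in the first (-0.32, edgeR adjusted p = 0.09342). The highest PM library and the lowest vehicle library were level at the digits given. Its annotated gene reaches into the 3′ end of Hist1h1e on the same strand, so reads over both cannot be told apart. Hist2h2bb fell far more, to 0.182 to 0.509 CPM in PM libraries, with a median of 0.243, against 13.8, 10.1, 12.1, 8.82 and 11.4 CPM in vehicle libraries (a log2 fold change of -5.28, with SE 0.23, edgeR adjusted p = 1.523e-09). Hist1h2bb and Hist1h2bg also fell, with log2 fold changes of -4.41 and -3.07.

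**Figure D2:**
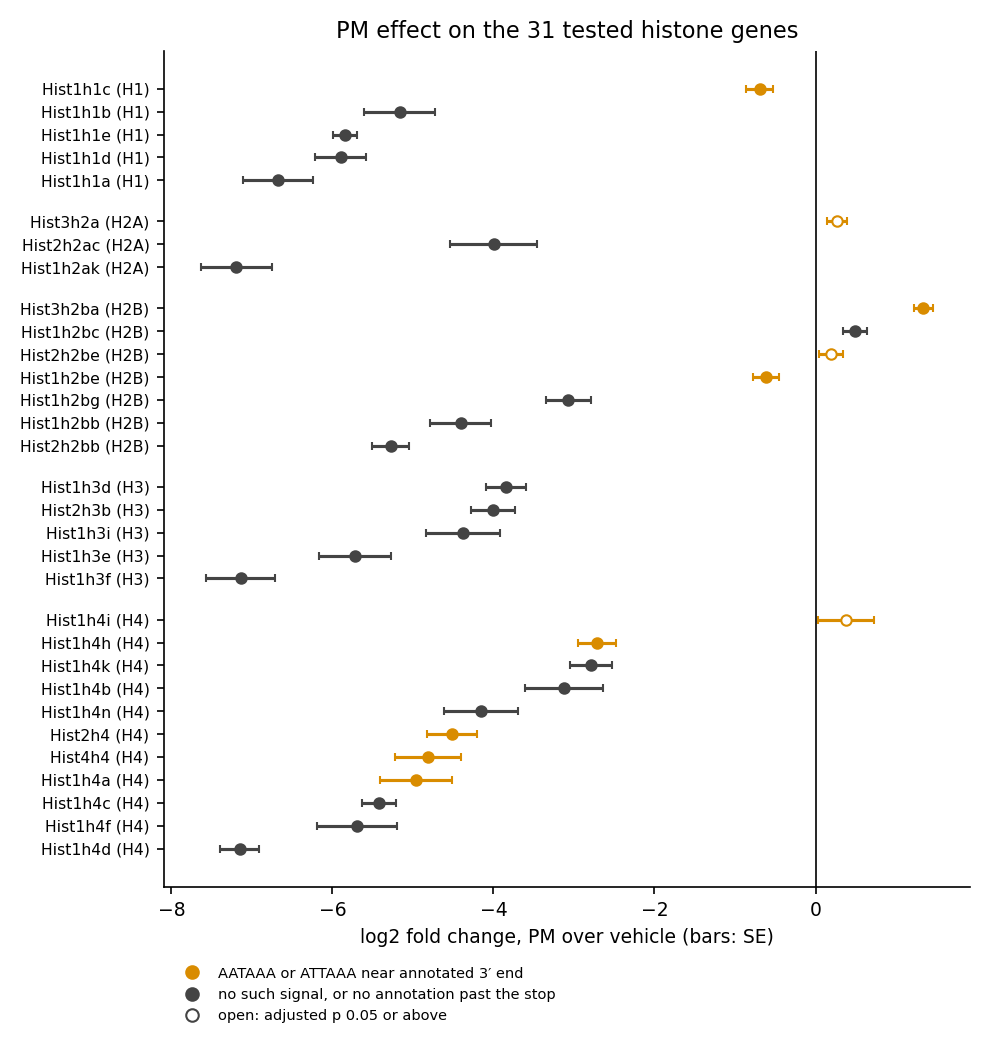
Log2 fold change of PM over vehicle with its SE for the 31 tested members, grouped by class from H1 at the top to H4. Filled points passed at an adjusted p of 0.05 and open points did not; orange marks members with a poly(A) signal near the annotated 3′ end. Most members lie below -2, while 7 lie above -1, of which 6 are orange.

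All 5 tested H3 genes, which encode the replicative forms of histone H3, were lower in PM. Hist1h3e had 0, 0, 0.429, 0.222, 0.0727 and 0.177 CPM in PM libraries, against 11.9, 6.6, 9.21, 6.86 and 6.04 CPM in vehicle libraries (a log2 fold change of -5.72, with SE 0.45, edgeR adjusted p = 1.049e-07). Hist2h3b had 0.222 to 0.619 CPM in PM libraries, with a median of 0.436, against 6.41, 4.34, 8.49, 8.16 and 7.79 CPM in vehicle libraries (a log2 fold change of -4.01, with SE 0.27, edgeR adjusted p = 2.684e-08). No PM library came near the lowest vehicle library for either gene. Hist1h3f had 2 counts in PM and 238 in vehicle libraries, with a vehicle over PM count ratio of 204 and a 95% exact counting interval of 56.0 to 1700. Hist1h3d and Hist1h3i had log2 fold changes of -3.84 and -4.38. Hist1h3g and Hist1h3h, untested, had no count in any PM library and 21 and 24 counts in vehicle libraries. Their pooled vehicle rates were 12.0-fold and 13.7-fold above the floor of 3 counts over the PM group. These figures leave out the error and spread of the vehicle counts, so they are not lower limits. For Hist1h3h, vehicle replicate 3 held 14 of the 24 counts, and vehicle replicates 4 and 5 held 1 each.

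Of the 11 tested H4 genes, 10 were lower and 1 did not pass. All H4 genes encode the same core histone. Hist1h4d had 0.0607 to 0.973 CPM in PM libraries, with a median of 0.432, against 67.7, 52.2, 66.5, 65.6 and 60.3 CPM in vehicle libraries (a log2 fold change of -7.15, with SE 0.24, edgeR adjusted p = 6.905e-10). It gave 7.64% of H4 counts in PM libraries and 52.1% in vehicle libraries. None of its 100-base words, the read length, occurs unchanged in another annotated gene. Copies that differ in a few bases were not looked for. Hist1h4c had 0.177 to 0.707 CPM in PM libraries, with a median of 0.263, against 13.8, 14.4, 12.8, 18.3 and 18.0 CPM in vehicle libraries (a log2 fold change of -5.43, with SE 0.21, edgeR adjusted p = 9.72e-10). Hist2h4 had 0.486, 0.295, 0.286, 0.593, 1.02 and 1.95 CPM in PM libraries, against 13.5, 19.7, 12.5, 17.1 and 15.5 CPM in vehicle libraries (a log2 fold change of -4.51, with SE 0.31, edgeR adjusted p = 3.812e-08). The PM libraries of the second set were all above those of the first for this gene. Hist1h4h and Hist1h4k fell less, with log2 fold changes of -2.71 and -2.79. Hist1h4i had 0.884 to 2.86 CPM in PM libraries, with a median of 1.34, against 0.712, 0.723, 1.99, 1.14 and 1.43 CPM in vehicle libraries. The groups overlapped, and the gene did not pass (a log2 fold change of 0.38, with SE 0.35, edgeR adjusted p = 0.3527). It gave 27.3% of H4 counts in PM and 0.985% in vehicle libraries.

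**Figure D3:**
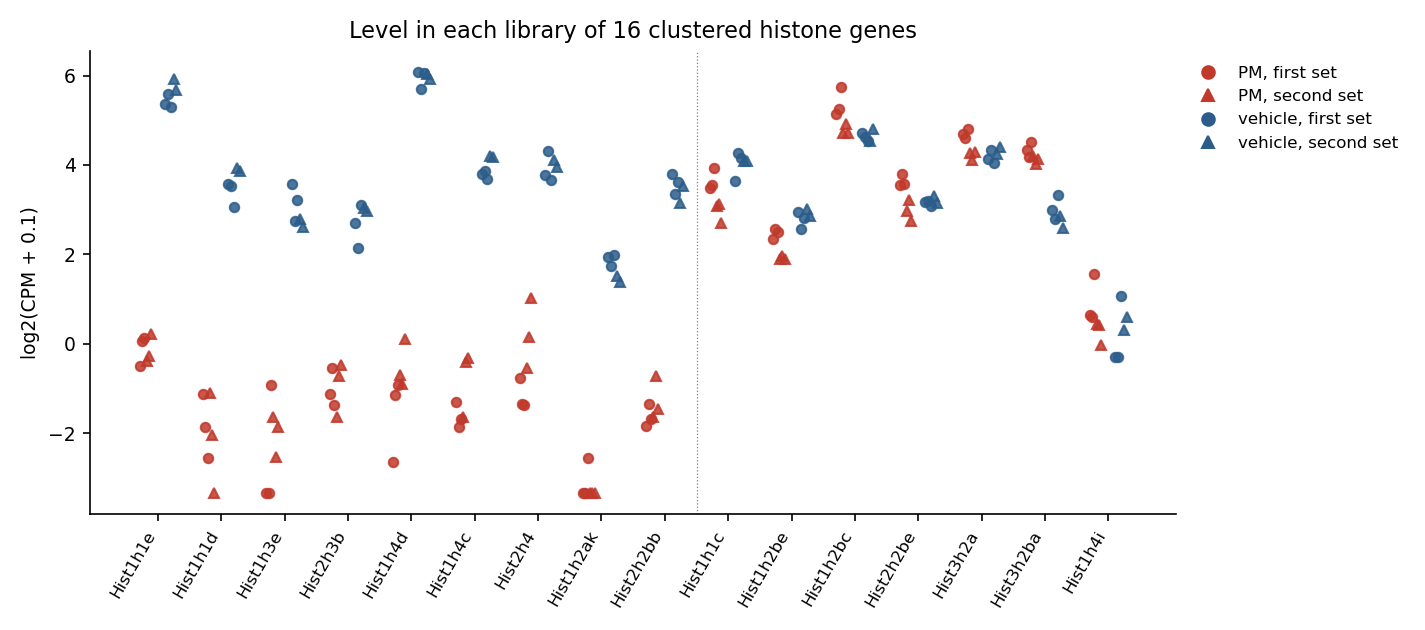
Level of 16 members in each library on the log2(CPM + 0.1) scale, PM in red left of vehicle in blue; circles are the first set and triangles the second. Left of the dotted line the PM and vehicle points are far apart; right of it are the 7 members with log2 fold changes above -1, whose points lie close or overlap except in Hist3h2ba, where PM is higher.

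Most of the histone counts in PM libraries came from 7 genes: Hist1h1c, Hist1h2bc, Hist1h2be, Hist1h4i, Hist2h2be, Hist3h2a and Hist3h2ba. They were picked after their values were seen, as the 7 tested members with a log2 fold change above -1, so the figures on them are descriptions. Together they held 92.1% of member counts in PM and 25.8% in vehicle libraries, and summed to 102 ± 22.8 CPM in PM and 85.1 ± 2.82 CPM in vehicle libraries (SD, n = 6 and 5). The other 61 members summed to 9.09 ± 1.70 CPM in PM and 246 ± 15.2 CPM in vehicle libraries, 27.1-fold lower. Just inside that limit was Hist1h1c at -0.69, and the nearest tested member outside it was Hist1h4h at -2.71. Members left out by the filter lay in between and above: fitted with no filter, Hist2h2aa2 (0.79), Hist1h1t (0.29), Hist1h2ac (-0.42), Hist1h2bh (-0.81) and Hist1h2ah (-0.86) were above -1, and none of these 5 passed.

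Members with the same loop letters lay far apart. Of 22 tested members with a stem-loop match, 19 were lower, 1 was higher and 2 did not pass. Another 4 tested members had at least 16 annotated bases after the stop codon but no match. Of these, 2 were lower, 1 was higher and 1 did not pass. The 2 lower ones, Hist1h1a and Hist2h3b, were annotated for only 48 and 37 bases there, so a stem-loop may have been missed. Hist1h1e, with a log2 fold change of -5.85, and Hist3h2a, at 0.27, carry the same 26 bases shown above. Hist2h4 and Hist1h4i share the form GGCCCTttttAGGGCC and stood at -4.51 and 0.38. Hist1h2bc and Hist2h2be had no match in the window searched. What lay at the annotated 3′ end differed more. A poly(A) signal, AATAAA or ATTAAA on the transcript strand, stood in the last 50 annotated bases of 17 members, of which 10 were tested, and of 75.2% of other protein-coding genes. Of those 10, 6 were lower, 1 was higher and 3 did not pass, with a median log2 fold change of -0.66. In the 16 tested members without the signal, 15 were lower and 1, Hist1h2bc, was higher, with a median of -4.92. In the 5 tested members annotated only to the stop codon all were lower, with a median of -5.17. The annotation the authors counted against may differ from GENCODE M21. The signal was also present in members that fell far, with Hist1h4a at -4.96, Hist4h4 at -4.82 and Hist2h4 at -4.51. Of the 7 members above -1, 6 had the signal; Hist1h1c, Hist3h2a, Hist1h2be, Hist1h4i and Hist3h2ba were annotated for 840, 1643, 1861, 330 and 169 bases past their stem-loop. Members that fell far had stretches as long, with 4884 bases in Hist1h1d, 2445 in Hist4h4, 1257 in Hist2h4, 1153 in Hist1h1e and 770 in Hist1h4d.

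Position gave a similar mixture. The Hist1 cluster on chromosome 13 holds 54 members, of which 23 were tested, and 21 were lower, 1 was higher and 1 did not pass. The Hist2 cluster on chromosome 3 holds 10 members, of which 5 were tested, and 4 were lower and 1 did not pass. The Hist3 cluster on chromosome 11 holds 3, and of 2 tested 1 was higher and 1 did not pass; its remaining row, Hist3h2bb-ps, is a processed pseudogene with 26 counts in PM and 45 in vehicle libraries. Hist4h4, alone on chromosome 6, was lower. Neighbours could differ widely, as Hist2h2be at 0.20 lies beside Hist2h2ac at -4.

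Promoters are shown for 2 of the genes that fell and for the 1 whose PM libraries all lay above the vehicle libraries, to set their upstream elements side by side. A RefSeq promoter (GRCm38.p6, 250 bases before to 50 after the start) was matched by synonym for 62 members. Searched on both strands, CCAAT, the box bound by the factor NF-Y, was in 85.5% of member promoters and 37.4% of all 32851 promoters. It was in every H1, H2A, H2B and H3 promoter matched and in 25.0% of the H4 promoters. TATAAA was in 56.5% of member promoters and 13.6% of all promoters. AAACACA, a box known from H1 promoters, was in 83.3% of H1 promoters and 7.2% of all. Matches of TATAAA and AAACACA can share letters. The 250 bases before each start are given 5′ to 3′ with motif matches in capitals.
Hist1h1e (chr13:23622559-23622808, - strand): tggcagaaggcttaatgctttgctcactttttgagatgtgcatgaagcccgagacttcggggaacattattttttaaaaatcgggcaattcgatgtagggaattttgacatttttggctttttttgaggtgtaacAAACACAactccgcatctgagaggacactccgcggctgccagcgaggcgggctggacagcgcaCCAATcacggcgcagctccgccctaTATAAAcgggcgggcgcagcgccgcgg
Hist1h4d (chr13:23581318-23581567, + strand): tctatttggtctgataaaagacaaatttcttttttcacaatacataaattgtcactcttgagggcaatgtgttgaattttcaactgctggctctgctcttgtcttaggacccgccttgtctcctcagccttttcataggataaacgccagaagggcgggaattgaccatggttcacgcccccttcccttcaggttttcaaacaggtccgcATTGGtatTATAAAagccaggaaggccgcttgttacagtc
Hist3h2ba (chr11:58948661-58948910, + strand): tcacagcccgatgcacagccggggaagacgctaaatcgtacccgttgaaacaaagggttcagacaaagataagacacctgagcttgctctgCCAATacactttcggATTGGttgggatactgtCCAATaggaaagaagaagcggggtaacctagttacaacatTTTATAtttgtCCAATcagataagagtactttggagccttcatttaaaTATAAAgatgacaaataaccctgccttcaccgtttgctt
All 3 hold CCAAT, or its reverse complement ATTGG, and TATAAA. Of the 20 tested members with CCAAT, 18 were lower, 1 was higher and 1 did not pass; of the 7 tested without it, 6 were lower and 1 did not pass. A match of letters is a description and not evidence of binding.

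The members left out of the test by the filter leaned the same way. Fitted with no filter, all 58 members with counts could be tested: 44 were lower, 3 were higher and 11 did not pass, with a median log2 fold change of -3.60. Among all 20519 genes in that fit, 27.4% were lower and 27.1% higher. Of the 27 members that the filter had left out, 18 were lower and 9 did not pass. Hist1h2bf, an H2B gene, had 1 count in PM and 47 in vehicle libraries, and Hist2h2ab, an H2A gene, had 7 in PM and 60 in vehicle libraries. Hist1h3a had 3 counts in PM and 51 in vehicle libraries. Reads from near-identical genes limit what the low members can show. The median share of a member's 100-base words that occur in another gene was 90.25% for the 10 members at 0, 46.4% for the 27 with counts that were not tested and 20.4% for the 31 tested. Counts not uniquely aligned made up 7.98% ± 1.04 of all counts in PM and 4.48% ± 0.220 in vehicle libraries (SD, n = 6 and 5). In addition, 24 members overlap another annotated gene, 21 of them on the opposite strand, and 8 of the 24 were tested. Without a known strand setting, reads from such pairs cannot be told apart.

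All 26 members that fell also passed in the second set, and all but Hist1h1c and Hist1h2be in the first. In the joint fit of group and set, 24 members were lower and 4 higher in the first set, where 38.9% of all tested genes were lower and 32.1% higher, 71% in either direction. In the second set 26 were lower and 1 higher, where 32.5% of all tested genes were lower and 32.3% higher, 64.8% in either direction. The PM effect differed between the sets for 4 of the 31 members (edgeR interaction test, adjusted p under 0.05), and for 29.6% of all tested genes. Hist2h4 fell more in the first set, with a log2 fold change of -5.37 (SE 0.34), than in the second, with -3.81 (SE 0.31; difference 1.56, edgeR adjusted p = 0.0386). For Hist3h2a the first set gave 0.54 (SE 0.11) and the second -0.09 (SE 0.13) (difference -0.63, edgeR adjusted p = 0.01366). Hist2h2be stood at 0.50 and -0.23 (difference -0.73, edgeR adjusted p = 0.02655), and Hist1h2bc at 0.78 and 0.10 (difference -0.68, edgeR adjusted p = 0.03012). Hist3h2ba differed little, with 1.30 (SE 0.15) and 1.41 (SE 0.19). The 4 differences rest on few libraries, and among vehicle libraries the sets also differ in Xist and Ddx3y, so the 2 cannot be told apart there. The number that passed was 2 without vehicle replicate 3, without vehicle replicate 4 or without PM replicate 2. Without vehicle replicate 5 no member passed in edgeR, with 5 at an unadjusted p under 0.05, and the lone vehicle library left in the second set is then assumed to vary like the others. DESeq2 on all libraries called 5.

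**Figure D4:**
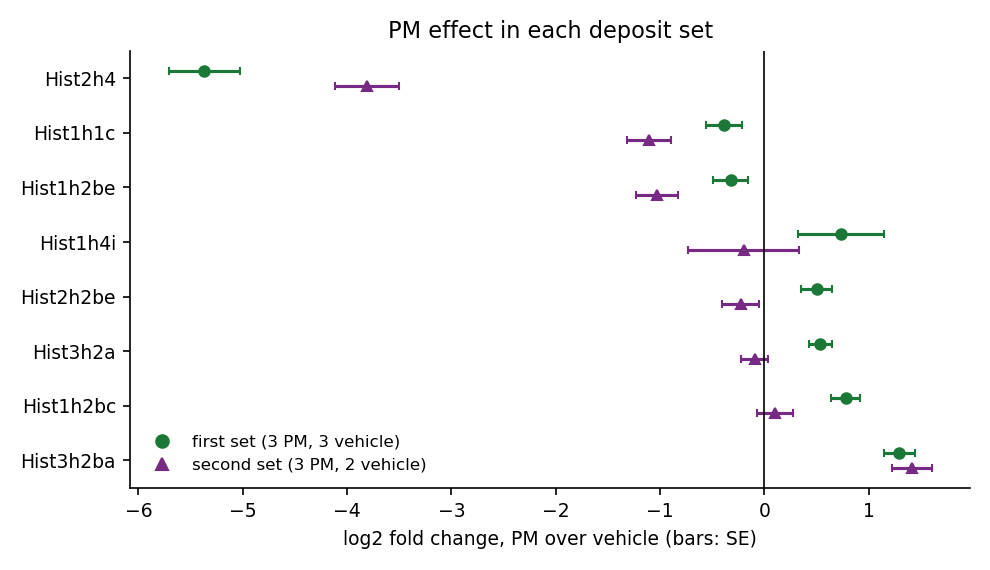
Log2 fold change of PM over vehicle with its SE in the first set (circles, 3 PM and 3 vehicle libraries) and the second set (triangles, 3 PM and 2 vehicle libraries), for Hist2h4 and the 7 members above -1. Of the 7, Hist3h2ba is near 1.3 to 1.4 in both sets and the other 6 are higher in the first set, a difference that passed for Hist3h2a, Hist2h2be and Hist1h2bc.

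Most histone genes outside the clusters were higher. The replacement variants, whose mRNAs are polyadenylated and made outside S phase too, had 9 of 11 tested members higher in PM, and 2, H1f0 and Cenpa, did not pass, where 32.7% of all tested genes were higher; the median log2 fold change was 0.80. H3f3a, which encodes the replacement histone H3.3, had 88.7 to 161 CPM in PM libraries, with a median of 102, against 31.5, 31.3, 34.5, 28.7 and 30.3 CPM in vehicle libraries (a log2 fold change of 1.86, with SE 0.12, edgeR adjusted p = 1.69e-08). All its PM libraries lay above all its vehicle libraries. H3f3b, which encodes the same protein, had a log2 fold change of 0.82, H2afz, which encodes H2A.Z, 1.70, and H2afj 1.41. H2afx, which has the stem-loop match and is known to give both kinds of mRNA end, was at 0.71 (SE 0.10, edgeR adjusted p = 3.756e-05).

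The genes that make and process histone mRNA moved both ways, with counts that depended on the fit. Of 15 listed, 13 were tested: 2 were higher, 3 were lower and 8 did not pass, with a median of -0.007. Among all tested genes 32.7% were higher and 36.4% lower. With a trend by gene length and GC content removed, 8 of the 13 were higher. Slbp, whose protein binds the stem-loop, had 13.3 to 20 CPM in PM libraries, with a median of 17.4, against 12.2, 16.9, 11.9, 17.5 and 19 CPM in vehicle libraries. Its groups overlapped and it did not pass (a log2 fold change of 0.14, with SE 0.15, edgeR adjusted p = 0.4492). The sets differed for Slbp, with 0.49 in the first and -0.32 in the second (difference -0.805, edgeR adjusted p = 0.009931). It was higher in the first set by test, and the second set did not pass (edgeR adjusted p = 0.09325). Of the 13, the PM effect was higher in the second set for 4 and lower for 4, where 29.6% of all tested genes differed. Npat, the coactivator that binds at histone loci in S phase, had 21.3 to 27.8 CPM in PM libraries, with a median of 23.9, against 69.3, 78.3, 62.9, 66.9 and 69.9 CPM in vehicle libraries. Its log2 fold change was -1.54 (SE 0.088, edgeR adjusted p = 7.913e-09), and -0.59 after removal of that trend. Casp8ap2 (-0.92), also called FLASH and needed for the U7-directed cut, and Cstf2 (-0.73), a cleavage factor, were lower as well, but stood at 0.14 and 0.42 once it was removed, so their direction turned. Lsm10 (0.88), a protein of the U7 particle, and Sympk (0.41), a scaffold of the cleavage complex, were higher. For Sympk the groups overlapped, and the rise passed in the second set (0.87) and not in the first (0.07, edgeR adjusted p = 0.6065). Lsm10 stood at 0.39 without the trend, and with a replicate block as well its 0.40 did not pass (edgeR adjusted p = 0.1008). The row for Rnu7, the U7 RNA itself, held no count in any library.

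Genes of S phase and proliferation moved both ways. Of 17 tested, 7 were higher, 5 were lower and 5 did not pass, with a median of -0.096. These 12 of 17 are close to the 69.1% of all tested genes that passed in either direction. Mki67, the proliferation marker Ki-67, had 2.24 to 4.07 CPM in PM libraries, with a median of 2.91, against 16.1, 12.5, 13.3, 16 and 13.4 CPM in vehicle libraries (a log2 fold change of -2.22, with SE 0.15, edgeR adjusted p = 3.715e-08). The groups did not overlap, and removal of the length and GC trend left -0.93. Ccna2, cyclin A2, was lower at -1.36. Pcna, the sliding clamp of DNA polymerase, was higher at 0.57, and E2f1, a transcription factor of S phase entry, at 0.75. E2f1 did not pass with the trend removed (0.25, edgeR adjusted p = 0.2189), nor did E2f1 (0.58, edgeR adjusted p = 0.07402) or Ccna2 (-0.75, edgeR adjusted p = 0.06042) in the second set by itself. Top2a, a topoisomerase of dividing cells, averaged 1.23 ± 0.400 CPM in PM and 2.05 ± 0.367 CPM in vehicle libraries, and Birc5, survivin, 0.747 ± 0.342 CPM in PM and 0.783 ± 0.463 CPM in vehicle libraries. The 3 markers of dividing cells, Mki67, Top2a and Birc5, summed to 4.61 to 5.71 CPM in PM libraries and 15.6 to 19.1 CPM in vehicle libraries, and none was at 0 throughout. Over the whole list the sum was 100 to 139 CPM in PM and 109 to 117 CPM in vehicle libraries. Their part in the histone falls was not tested.

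Several other RNAs known to lack a poly(A) tail fell as far as the histone genes. Of 8 tested, 5 were lower, 2 were higher and 1 did not pass, with a median of -3.74. Among all tested genes 36.4% were lower and 32.7% higher. Scarna13, a guide RNA of Cajal bodies, had 0.059 to 0.873 CPM in PM libraries, with a median of 0.181, against 69.0, 57.1, 76.9, 62.4 and 59.6 CPM in vehicle libraries (a log2 fold change of -7.70, with SE 0.30, edgeR adjusted p = 9.72e-10). Rpph1 and Rmrp, the RNA parts of 2 ribonucleases, stood at -7.98 and -7.38, Snord17, a nucleolar guide RNA, at -4.35 and Malat1 at -3.14. Rn45s, the ribosomal RNA precursor (2.58), and Scarna2 (1.02) were higher, and Neat1 did not pass. The PM effect differed between the sets for 5 of the 8 (edgeR interaction test, adjusted p under 0.05), and for 29.6% of all tested genes. In all 5 it was higher in the second set. The first and second sets gave -0.10 and 1.43 for Neat1, -4.23 and -1.57 for Malat1, and -9.53 and -5.60 for Rmrp. These RNAs are grouped by how they are made or end and not by function.

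**Figure D5:**
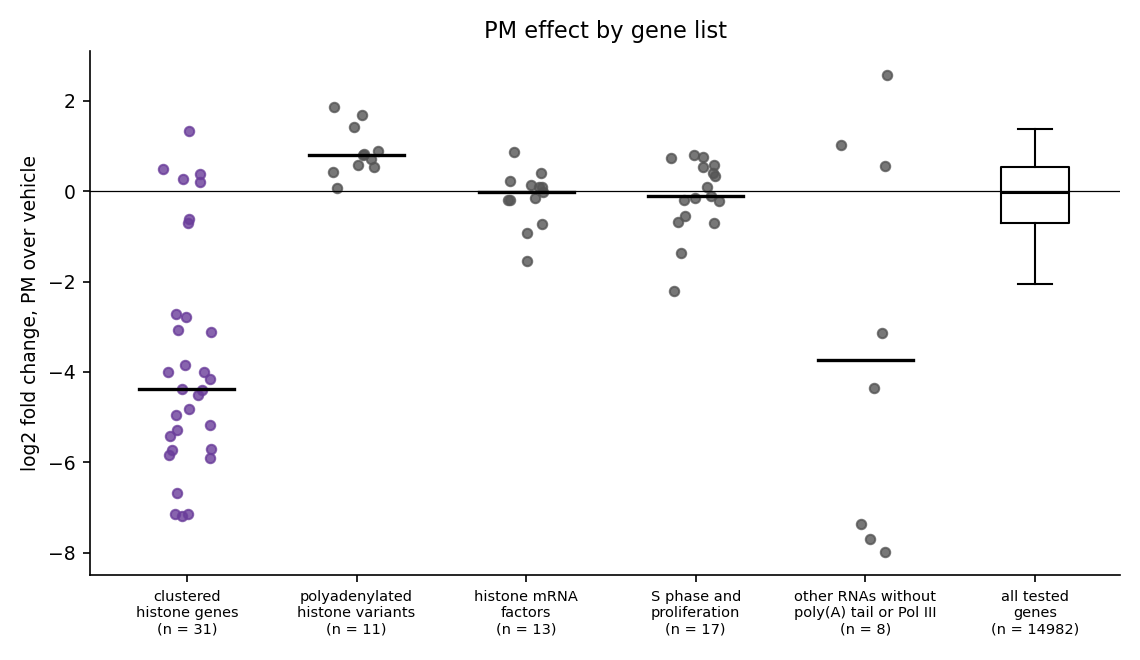
Log2 fold change of PM over vehicle for the 31 tested clustered histone genes and 4 other lists (points; bars are medians), beside all 14982 tested genes (box: quartiles and median; whiskers: the 5th to 95th percentiles). The clustered histone genes have a median of -4.38, the polyadenylated histone variants 0.80 and the other RNAs without a poly(A) tail or of RNA polymerase III -3.74.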

How the data were processed

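RNA from mouse hippocampus was sequenced in 6 PM and 5 vehicle libraries. The deposited files hold raw counts, 1 whole number per gene symbol and library, made by the authors; no column was left unused. Per the submitters' processing notes, FastQC 0.11.9, Trimmomatic 0.36, STAR, SAMtools 1.9, Picard 2.9.2 and HTSeq 0.9.1 were used with the builds mm10 and hg19. No source used here gives the strand setting. Summary rows that name no gene, such as those with no feature (26.0% ± 6.46 of counts in PM, 61.4% ± 0.461 in vehicle libraries), stayed out of library sizes and tests. No pair of libraries agreed within sampling noise (lowest chi-square per degree of freedom 2.01).

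Counts were filtered with filterByExpr (minimum count 10), scaled by TMM and tested with edgeR 4.0.16 in R 4.3.3: robust quasi-likelihood, two-sided, the deposit set as covariate, Benjamini-Hochberg adjustment over 14982 genes, threshold 0.05. Set effects and their difference came from 1 joint fit. SE is the log2 fold change over the square root of F. CPM uses TMM-scaled library sizes. The steps were tested on simulated data. The named genes were, in each class, the 3 of highest mean CPM, the largest fall and any largest rise, then those higher in PM, those differing between sets and those not passed, and up to 4 of smallest p in each other list; untested members are given by counts. Other genes named, such as Hist1h2be, Hist1h4h, Slbp, H2afx and Sympk, were chosen after their values were seen. Members and lists were chosen with earlier results of these data known. Alternatives included DESeq2 1.42.0, other scalings, no filter, no covariate, each set alone, a replicate block, removal of a length and GC trend, and leaving out each library. Gene models came from GENCODE M21 and promoters from RefSeq.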

Additional observations from a re-analysis of the deposited data

Results flagged for a closer look

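The levels of named genes and the summed levels were examined in each group for 1 library standing apart from the rest. Among these 48 pairs of level and group, 3 outlying values were found, all in PM libraries. Chance gives about 1 in 20 such pairs where values are normally distributed, which very low counts are not. PM replicate 3 was highest for Hist1h2ak at 0.0716 CPM, which is the only count of that gene in any PM library, and for Hist1h4i at 2.86 CPM. PM replicate 5 was highest for Hist2h2bb at 0.509 CPM.

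The PM effect differed between the sets by test for 4 members. The second set minus the first was 1.562 for Hist2h4, -0.678 for Hist1h2bc, -0.73 for Hist2h2be and -0.629 for Hist3h2a on the log2 scale. No member passed this test in edgeR without vehicle replicate 5, with 5 at an unadjusted p under 0.05.

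Counts that were not assigned to a single gene also differed between the groups. Those not uniquely aligned were 7.98% of all counts in PM libraries, against 4.48% in vehicle libraries, and ambiguous ones 1.31% in PM, against 0.555% in vehicle libraries.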

How the results depend on the processing

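The 26 lower members became 44 with no filter, since 58 members were then tested; leaving out 1 library gave 26 to 28. The 2 higher members became 4 in the first set alone and 1 in the second set alone, and 2 to 3 without 1 library. The number whose effect differed between sets ranged from 0, without vehicle replicate 5, to 6, without PM replicate 1. Hist3h2a, Hist2h2be and Hist1h4i changed sign in the second set alone, to -0.083, -0.219 and -0.187.

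Same-numbered PM and vehicle libraries did not deviate together (correlations -0.176 to -0.005), so the numbers were not taken as pairs. With a replicate block 26 members were lower and 2 higher; among processing genes 1 was higher, among other RNAs 1 was higher and among S phase genes 3 were lower.

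In the second set alone, processing genes had 5 lower and 4 higher, other RNAs 1 higher, and S phase genes 2 lower and 1 higher. With the length and GC trend removed, which moved the median of all genes from -0.045 to 0.071, processing genes had 8 higher, polyadenylated variants 1 lower, and S phase genes 3 lower and 4 higher; Cstf2 and Casp8ap2 turned to 0.418 and 0.142. With the block as well, processing genes had 1 lower and 5 higher, other RNAs 1 higher, S phase genes 2 lower and 4 higher, and Cstf2 and Casp8ap2 stood at 0.424 and 0.181. The higher counts ranged from 1 to 2 for processing genes and from 1 to 3 for other RNAs without 1 library. With library sizes taken without 6 abundant RNAs, vehicle sums were 30.6 CPM for H2A, 73.56 for H2B and 128.3 for H4. The cause of these changes was not tested. Depth limits members near 0 in PM libraries, whose fold changes depend on few counts.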
